A study of Mus musculus with 6 samples.

Results

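The glutathione S-transferases described here are 10 genes of phase II xenobiotic metabolism, *Gstm1*, *Gstm5*, *Gstp1*, *Gstt1*, *Gstt2*, *Gsto1*, *Gstk1*, *Mgst1*, *Mgst2* and *Mgst3*. They were chosen by gene symbol from the 23420 symbols of the count table, and all 10 were found there. Their transcripts were measured by poly(A) RNA sequencing in spleen B cells of 3 Ahr+/+ and 3 Ahr-/- mice, labelled as C57Bl/6J. The Ahr-/- line is B6.129-Ahr tm1Bra/J, which lacks the aryl hydrocarbon receptor (AhR) in every cell of the mouse and not in B cells alone. Mice were adults matched for age. B cells of both genotypes were activated for 8 h with anti-IgM at 10 µg/ml, which engages the B-cell receptor, and IL-4 at 20 ng/ml. FICZ, a high-affinity AhR ligand derived from tryptophan, was present at 250 nM during the final 4 h. Every library therefore came from activated and ligand-exposed cells, and the only contrast is the genotype.

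Glutathione S-transferases join the thiol of glutathione to electrophilic compounds, which makes these more soluble and ready for export. The cytosolic enzymes fall into classes that include mu (Gstm), pi (Gstp), theta (Gstt), omega (Gsto), alpha (Gsta) and zeta (Gstz). The kappa enzyme Gstk1 is found in mitochondria and peroxisomes, and the Mgst proteins belong to a separate family embedded in membranes. AhR is a ligand-activated transcription factor that binds the dioxin response element (DRE) with its partner ARNT. Several transferases are textbook targets of AhR or of NRF2, which binds the antioxidant response element (ARE), mostly from work in liver.

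Libraries held between 22095096 total counts (Ahr-/- replicate 1) and 53648787 (Ahr-/- replicate 2). Levels are given in CPM, which scales each library to the same effective total. The detection floor, 3 counts, lay at 0.0555 to 0.134 CPM depending on the library and allows for counting error alone. The targeted gene, *Ahr* on chromosome 12, had 12682, 12892 and 13953 normalized counts in Ahr+/+ libraries and 8856, 8949 and 9717 in Ahr-/- libraries, all lower. A count per gene does not show which exons of *Ahr* the remaining reads cover. Of the 10 transferases, 0 lie on chromosome 12. The B-cell markers *Cd79a*, *Cd79b*, *Ms4a1* and *Pax5* were detected in every library and were higher in Ahr-/- cells (here and below, an adjusted p under 0.05 by edgeR), with log2 fold changes of 0.26, 0.35, 0.26 and 0.65, and *Cd22* had one of 0.14 that did not pass the test. Markers of plasmacytoid dendritic cells, several of which B cells also express, summed to 882 to 931 CPM and 1062 to 1088 CPM, with 7 of 9 higher and 1 lower. These sums are mostly *Irf8* and *Tcf4*, with log2 fold changes of 0.34 and -0.68, while *Siglech*, *Klk1*, *Runx2* and *Lifr* had 2.23, 2.19, 1.47 and 1.43. Those of conventional dendritic cells summed to 21.1 to 24.3 CPM and 22.7 to 27.5 CPM, with 4 of 7 higher and 1 lower. *Zbtb46*, the largest part of these sums, was the lower one, at -0.40. *Cd209a*, *Clec9a*, *Clec10a* and *Itgax* were higher, at log2 fold changes of 2.52, 1.86, 1.83 and 1.06. Macrophage and monocyte markers summed to 33.3 to 44.1 CPM and 19.6 to 34.6 CPM, with 1 of 10 higher (*Cd14*, log2 fold change 1.64) and 1 lower (*Emr1*, -3.60). *Emr1* was the largest part of the Ahr+/+ sums and went from a mean of 650 to 54.1 normalized counts. Of the 10, 7 had log2 fold changes above 0, and the median was 0.43. The lists for neutrophils, T cells, NK cells, erythroid cells, platelets and mast cells or basophils each summed to at most 12.0 CPM in any library, and the haemoglobin genes *Hbb-b1*, *Hba-a1* and *Hba-a2* were at 0 throughout. In these lists *Ncr1* and *Klrb1c*, 2 of 4 NK-cell markers, were higher at log2 fold changes of 0.98 and 0.92, *Cpa3*, 1 of 4 mast cell or basophil markers, was 2.82-fold higher, and *Cd3e*, 1 of 5 T-cell markers, was lower at a log2 fold change of -1.26. Over all genes tested, 9.79% were higher and 8.13% lower. The part of these markers in the transferase results was not tested.

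Promoters are shown for the mu, pi and microsomal genes that were higher in Ahr-/- cells and have a promoter entry, because AhR and NRF2 act through short elements near gene starts. Each runs from 250 bases before to 50 bases after the RefSeq start on GRCm38.p6, 5′ to 3′ on the gene's strand. Capitals mark the DRE core, GCGTG on either strand, and the ARE, TGACNNNGC on either strand. The windows are chr3:108017924-108018223 on the minus strand for *Gstm1*, chr3:107895604-107895903 on the plus strand for *Gstm5*, chr19:4037863-4038162 on the minus strand for *Gstp1* and chr3:51660929-51661228 on the plus strand for *Mgst2*.
Gstm1: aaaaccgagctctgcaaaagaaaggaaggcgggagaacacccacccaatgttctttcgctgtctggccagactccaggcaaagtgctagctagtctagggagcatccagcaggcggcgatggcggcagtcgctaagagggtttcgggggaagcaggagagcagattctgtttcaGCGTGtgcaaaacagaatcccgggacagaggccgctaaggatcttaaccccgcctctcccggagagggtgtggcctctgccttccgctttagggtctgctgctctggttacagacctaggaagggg
Gstm5: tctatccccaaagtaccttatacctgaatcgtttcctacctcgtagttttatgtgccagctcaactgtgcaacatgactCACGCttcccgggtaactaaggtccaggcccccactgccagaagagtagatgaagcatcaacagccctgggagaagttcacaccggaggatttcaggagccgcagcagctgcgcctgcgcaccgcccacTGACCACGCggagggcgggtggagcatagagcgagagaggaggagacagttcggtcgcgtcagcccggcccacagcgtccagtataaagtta
Gstp1: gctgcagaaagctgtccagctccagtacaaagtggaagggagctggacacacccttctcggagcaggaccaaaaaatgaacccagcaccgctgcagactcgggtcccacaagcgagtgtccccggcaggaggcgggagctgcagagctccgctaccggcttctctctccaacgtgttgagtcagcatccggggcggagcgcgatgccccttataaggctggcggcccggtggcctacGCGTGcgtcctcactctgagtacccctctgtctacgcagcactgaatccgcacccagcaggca
Mgst2: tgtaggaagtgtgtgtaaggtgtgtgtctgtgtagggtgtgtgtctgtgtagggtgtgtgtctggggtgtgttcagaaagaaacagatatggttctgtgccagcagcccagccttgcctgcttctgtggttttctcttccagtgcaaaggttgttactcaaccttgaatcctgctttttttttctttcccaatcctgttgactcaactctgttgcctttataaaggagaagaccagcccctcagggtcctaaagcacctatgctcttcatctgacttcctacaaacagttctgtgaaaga

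The *Gstm5* window held 2 DRE cores, starting 171 and 38 bases before the start, and 1 ARE at 42 bases before it that overlaps the nearer DRE core. *Gstm1* had 1 DRE core at 76 bases and *Gstp1* 1 at 13 bases before the start, while *Mgst2* had neither motif in this window. The *Mgst2* window lies inside the gene as GENCODE annotates it, which begins upstream at 51660360, so it does not cover the sequence before that start. Over the 9 transferases with a promoter entry, 4 held a DRE core (*Gstm1*, *Gstm5*, *Gstp1* and *Mgst3*) and 2 an ARE (*Gstm5* and *Mgst1*). Where a gene has several entries, the first was used. Of all 32851 RefSeq promoter entries of this length, 32.4% held a DRE core, 11.1% held at least 2, 12.4% held an ARE and 4.79% held both. These shares count every entry, and a gene can have several, whereas each transferase was counted once. Of the AhR target genes described below, *Nqo1* held neither motif in its window and *Cyp1a1* 1 DRE core at 54 bases before the start. Other forms of the elements, and sequence outside the windows, were not searched. These matches describe sequence only. Binding was not measured here.

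The comparison of genotypes asks which transferase transcripts differ in activated, ligand-exposed B cells when AhR is absent. All 10 transferases had enough reads to be tested. *Gstm1*, *Gstm5*, *Gstp1*, *Gstt2* and *Mgst2* rose in Ahr-/- B cells, *Gstt1*, *Gsto1*, *Gstk1*, *Mgst1* and *Mgst3* did not pass the test, and 0 fell. The increases ran from a log2 fold change of 0.25 for *Gstt2* to 1.26 for *Gstm5*, at an adjusted p under 0.05 (edgeR's quasi-likelihood test, adjusted over all 13682 genes tested). Of all genes tested, 17.9% passed this threshold, 9.79% as higher and 8.13% as lower. The log2 fold change was above 0 for 8 of the 10 transferases, with a median of 0.35 against 0.0021 over all genes tested. For 5 of the 10 transferases the Ahr-/- values lay wholly outside the Ahr+/+ range, as was so for 33.5% of all genes tested. With 3 mice against 3, a two-sided exact permutation test of a single gene cannot go below p = 0.1. The number called was 6 without Ahr-/- replicate 3 and 3 without any 1 of the other libraries (Ahr+/+ replicates 1, 2 and 3 and Ahr-/- replicates 1 and 2), and 2 with DESeq2's Wald test. *Gstm1* and *Gstp1* were called in all of these. Over all genes, 2453 were called with all libraries, 1664 to 2601 with 1 library left out and 2184 with DESeq2's Wald test. In bulk RNA, a change in the share of cells that express a gene and a change in its transcripts per cell cannot be told apart.

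**Figure D1:**
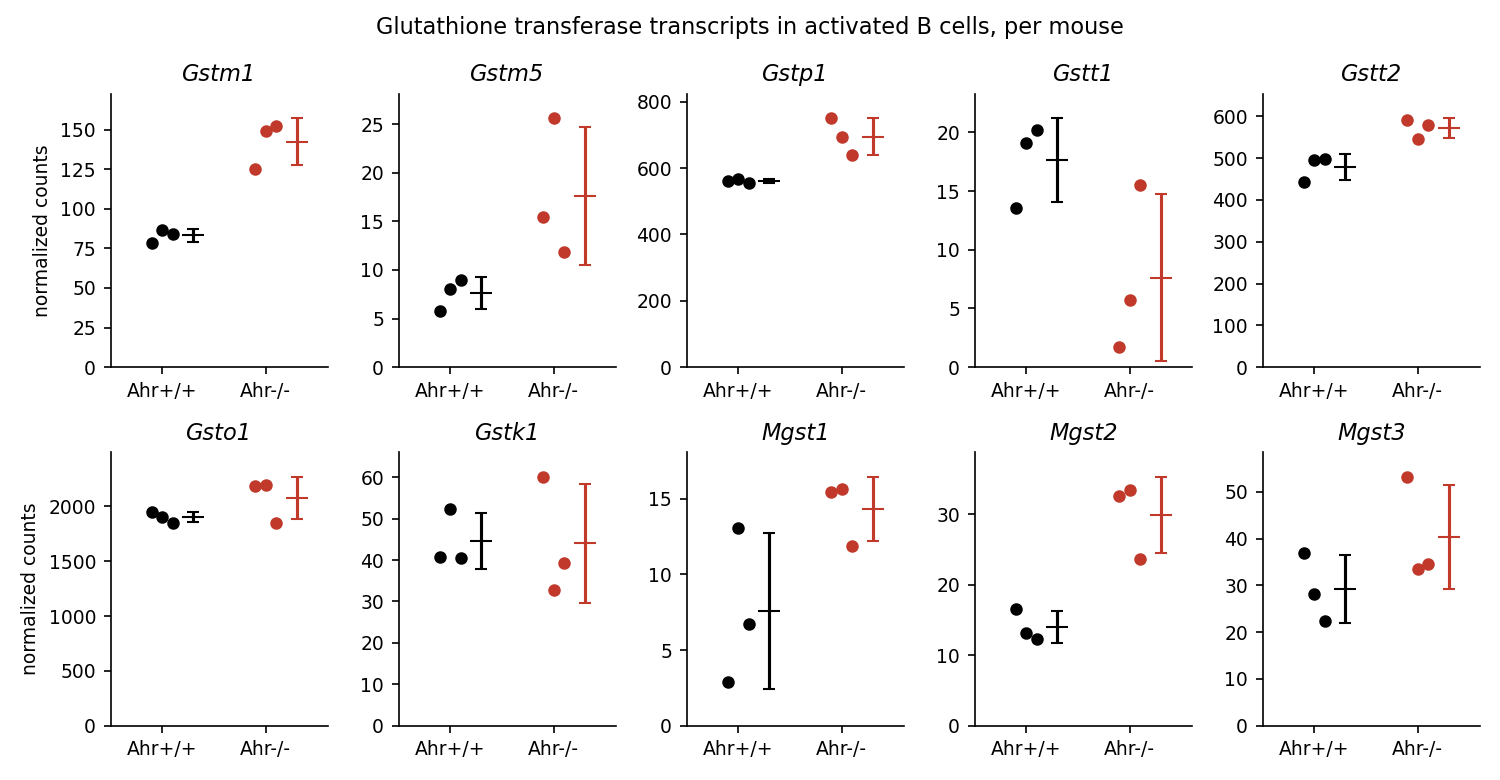
Normalized counts (y axis, from 0) of the 10 transferases in each mouse by genotype, with 1 point per library and the mean ± SD beside the points. All 3 Ahr-/- points lie above all 3 Ahr+/+ points for *Gstm1*, *Gstm5*, *Gstp1*, *Gstt2* and *Mgst2*, and the points of the other genes overlap.

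**Figure D2:**
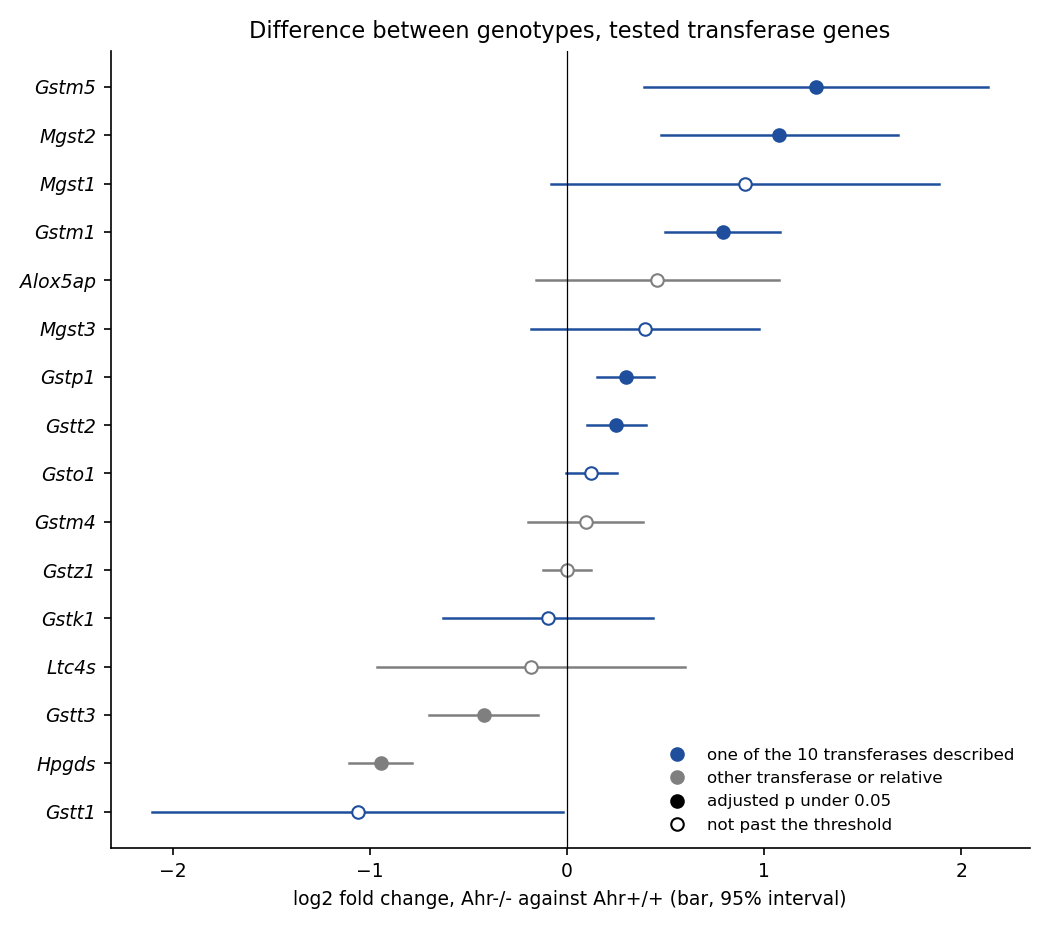
Log2 fold change of Ahr-/- against Ahr+/+ (x axis) with its 95% interval for the 10 transferases, in blue, and for other transferases and relatives whose higher genotype averaged at least 10 normalized counts, in grey. Filled points passed an adjusted p of 0.05, with *Gstm5* at 1.26 at the top and *Hpgds* at -0.95 the lower of the 2 filled grey points.

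Among the mu enzymes, *Gstm1*, which conjugates a broad range of electrophiles, had 78.7, 86.5 and 84.2 normalized counts in Ahr+/+ libraries and 125, 149 and 152 in Ahr-/- libraries. Every Ahr-/- library was well above every Ahr+/+ library. The means were 83.1 ± 4.04 and 142 ± 14.8 (SD, 3 mice each), a 1.73-fold rise with a log2 fold change of 0.79 ± 0.134 (SE, adjusted p = 0.00116, edgeR). It passed the threshold in 13 of 13 alternative analyses, where the log2 fold change stayed between 0.75 and 0.86. *Gstm1* is annotated on chromosome 3 of GRCm38 from 108012255 to 108017973, and 18.9% of the 50-base windows of its transcripts also occur in another gene, chiefly *Gstm2-ps1* and *Gstm3*. How the counting treated such reads is not given in the sources used here, and *Gstm3* itself had at most 1 count in any library.

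*Gstm5*, a mu enzyme best known from brain and testis, was near the lower limit of what these libraries can measure, with 6, 8 and 8 raw counts in Ahr+/+ and 9, 36 and 13 in Ahr-/- libraries. After normalization these were 5.83, 8.05 and 8.98 against 15.4, 25.6 and 11.9, so that Ahr-/- replicate 2 stood above the other libraries. The log2 fold change came to 1.26 ± 0.400 (SE, adjusted p = 0.047, edgeR), just inside the threshold. The call was lost without any 1 library other than Ahr-/- replicate 3, and without Ahr-/- replicate 2 the log2 fold change was 0.80 (adjusted p = 0.315 from edgeR). DESeq2's Wald test gave an adjusted p of 0.164. *Gstm5* lies on chromosome 3 from 107895821 to 107898686 and overlaps *4933431E20Rik* on the opposite strand, which holds 9.44% of its 50-base windows. The sources used here do not say if counting used strand, so reads in the sequence these genes share cannot be told apart.

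*Gstp1*, the pi enzyme, which is widely expressed in proliferating cells, had 562, 567 and 556 normalized counts in Ahr+/+ libraries and 750, 695 and 640 in Ahr-/- libraries. The Ahr+/+ mice were nearly identical, and all 3 Ahr-/- mice were higher, with a wider spread. The means were 562 ± 5.78 and 695 ± 55.0 (SD, 3 mice each), a 1.23-fold rise with a log2 fold change of 0.30 ± 0.0662 (SE, adjusted p = 0.00732, edgeR). It was called in 13 of 13 alternative analyses, at log2 fold changes between 0.25 and 0.35. *Gstp1* is on chromosome 19 from 4035407 to 4037985, and 33.7% of its 50-base windows are shared with its neighbour *Gstp2*. How reads from such windows were counted is not given in the sources used here. *Gstp2* was listed at 1, 1 and 3 raw counts in Ahr+/+ libraries and 0, 6 and 0 in Ahr-/- libraries.

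Of the theta enzymes, which act on small halogenated compounds and sulfate esters, *Gstt2* rose and *Gstt1* did not pass the test. *Gstt2* had 444, 495 and 499 normalized counts in Ahr+/+ against 590, 545 and 579 in Ahr-/- libraries, without overlap. Its means were 479 ± 30.6 and 572 ± 23.5 (SD, 3 mice each), a log2 fold change of 0.25 ± 0.0692 (SE, adjusted p = 0.0248, edgeR). The call was lost without Ahr+/+ replicate 1, Ahr-/- replicate 1 or Ahr-/- replicate 3, where edgeR's adjusted p was 0.101, 0.0676 and 0.0619, and DESeq2's Wald test gave 0.057. *Gstt2* lies on chromosome 10 from 75831114 to 75837424.

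*Gstt1* had 14, 19 and 18 raw counts in Ahr+/+ libraries and 1, 8 and 17 in Ahr-/- libraries, or 13.6, 19.1 and 20.2 against 1.72, 5.69 and 15.5 normalized counts. Ahr-/- replicate 3 lay within the Ahr+/+ range, and the other Ahr-/- libraries lay below it. The log2 fold change was -1.06 (95% interval -2.10 to -0.019, adjusted p = 0.162 from edgeR), which did not pass the test over all genes. Without Ahr-/- replicate 3 it was -1.95 (adjusted p = 0.0127 from edgeR). *Gstt1* is on chromosome 10 from 75783813 to 75798584.

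*Gsto1*, the omega enzyme, which reduces dehydroascorbate and methylated arsenic and removes glutathione from proteins, was the most abundant of the 10. It had 1948.5, 1905 and 1853 normalized counts in Ahr+/+ libraries and 2183, 2193 and 1853 in Ahr-/- libraries. Ahr-/- replicates 1 and 2 were above the Ahr+/+ range, and replicate 3 was level with the lowest Ahr+/+ library. The log2 fold change was 0.12 (95% interval -0.0069 to 0.25, adjusted p = 0.194 from edgeR). Without Ahr-/- replicate 3 it was 0.20 (adjusted p = 0.00578 from edgeR), and without Ahr-/- replicate 2 it was 0.077 (adjusted p = 0.555 from edgeR). *Gsto1* is on chromosome 19 from 47854970 to 47864790 and overlaps *Cfap43* on the opposite strand.

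*Gstk1*, the kappa enzyme, had 40.8, 52.3 and 40.4 normalized counts in Ahr+/+ libraries and 60.1, 32.7 and 39.2 in Ahr-/- libraries. The spread within Ahr-/- libraries covered that of Ahr+/+ libraries. Its log2 fold change was -0.097, with a 95% interval from -0.63 to 0.44 (adjusted p = 0.839 from edgeR), and its sign turned without Ahr+/+ replicate 2 or Ahr-/- replicate 2. *Gstk1* is on chromosome 6 from 42245935 to 42250447.

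The microsomal enzymes were all at low counts. *Mgst2*, which also conjugates leukotriene A4, had 16.5, 13.1 and 12.4 normalized counts in Ahr+/+ against 32.6, 33.4 and 23.7 in Ahr-/- libraries, from 17, 13 and 11 and 19, 47 and 26 raw counts. No Ahr-/- value was within the Ahr+/+ range. The means were 14.0 ± 2.22 and 29.9 ± 5.39 (SD, 3 mice each), a 2.11-fold rise with a log2 fold change of 1.08 ± 0.276 (SE, adjusted p = 0.0168, edgeR). The call was lost without Ahr+/+ replicate 2, Ahr+/+ replicate 3 or Ahr-/- replicate 2, where edgeR's adjusted p was 0.0546, 0.0662 and 0.0984, and DESeq2's Wald test gave 0.075. *Mgst2* lies on chromosome 3 from 51660360 to 51682677 and overlaps *Gm37261* on the same strand.

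*Mgst1*, the abundant liver enzyme of microsomes and outer mitochondrial membranes, had 3, 13 and 6 raw counts in Ahr+/+ libraries and 9, 22 and 13 in Ahr-/- libraries. Normalized counts were 2.91, 13.1 and 6.74 against 15.4, 15.6 and 11.9, and Ahr+/+ replicate 2 overlapped the Ahr-/- range. The log2 fold change was 0.90 (95% interval -0.080 to 1.89, adjusted p = 0.209 from edgeR). It was 1.57 without Ahr+/+ replicate 2 (adjusted p = 0.0515 from edgeR) and 0.50 without Ahr+/+ replicate 1 (adjusted p = 0.504 from edgeR). For *Mgst3*, a glutathione peroxidase and transferase of the same family, the values were 36.9, 28.2 and 22.5 in Ahr+/+ and 53.2, 33.4 and 34.6 in Ahr-/- libraries. These overlapped, and its log2 fold change was 0.40 (95% interval -0.18 to 0.97, adjusted p = 0.359 from edgeR), with 0.21 without Ahr-/- replicate 1 and 0.60 without Ahr+/+ replicate 1. *Mgst1* is on chromosome 6 from 138140316 to 138156755 and *Mgst3* on chromosome 1 from 167371966 to 167393841.

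Levels were compared between genes as CPM per kilobase of annotated exon. In Ahr+/+ B cells the order was *Gsto1* at 24.5, *Gstp1* at 9.44, *Gstt2* at 3.00, *Gstm1* at 1.47, *Gstk1* at 0.788, *Mgst3* at 0.692, *Gstt1* at 0.300, *Gstm5* at 0.155, *Mgst2* at 0.0982 and *Mgst1* at 0.0979. The ranges over 3 mice of *Gstk1* and *Mgst3* overlapped, as did those of *Mgst2* and *Mgst1*, and other neighbours in the order did not. The range of *Mgst1*, 0.0377 to 0.169, also reached that of *Gstm5*, 0.119 to 0.183. In Ahr-/- B cells the first 4 genes kept their order, at 26.7, 11.7, 3.58 and 2.51. They were followed by *Mgst3* at 0.959 and *Gstk1* at 0.779, whose ranges overlapped, *Gstm5* at 0.359, and then *Mgst2* at 0.210, *Mgst1* at 0.185 and *Gstt1* at 0.130, whose ranges also overlapped one another. The Ahr-/- range of *Gstt1*, 0.029 to 0.264, also reached that of *Gstm5*, 0.241 to 0.521.

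**Figure D3:**
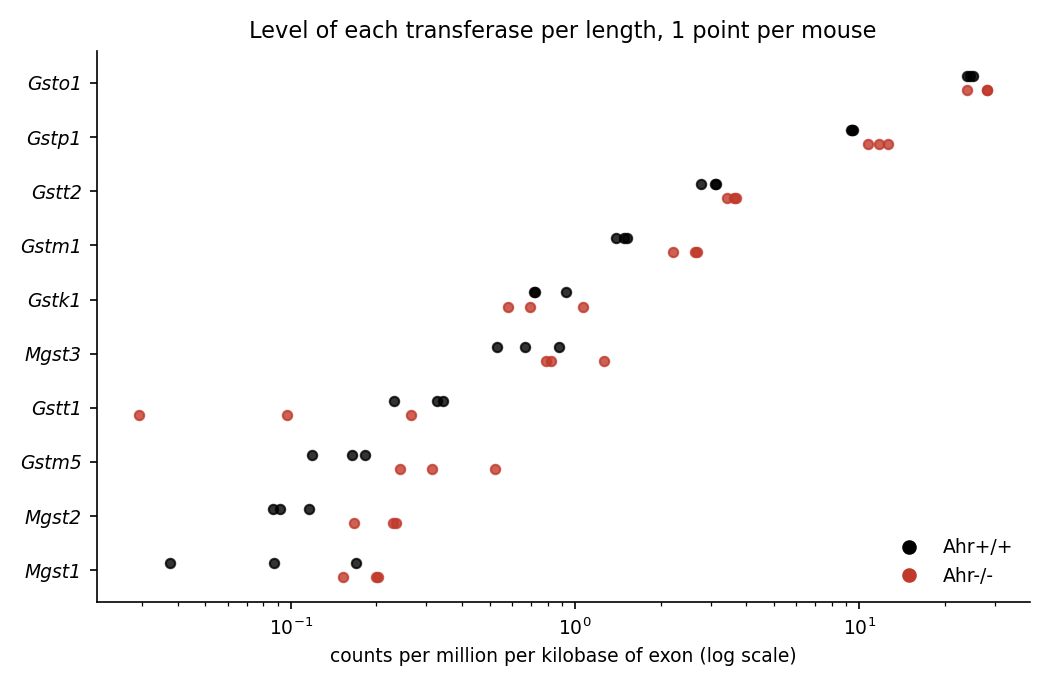
Level of each transferase as CPM per kilobase of exon (x axis, log scale), with 1 point per mouse and genotypes in black and red. *Gsto1* lies above 23 in all 6 libraries, and *Mgst1*, *Mgst2*, *Gstm5* and *Gstt1* reach down to values below 0.3.

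The summed level of the 10 genes, in CPM, was 82.0, 82.9 and 80.7 in Ahr+/+ and 99.6, 97.0 and 87.4 in Ahr-/- libraries. Every Ahr-/- sum was above every Ahr+/+ sum, with Ahr-/- replicate 3 nearest to them. *Gsto1* made up 60.4% of the sum in Ahr+/+ and 57.1% in Ahr-/- cells, *Gstp1* 17.9% and 19.1%, and *Gstt2* 15.2% and 15.7%. *Gstm1* accounted for 2.64% and 3.91%, and the other genes for at most 1.41% each.

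The mu and theta genes lie in clusters of close paralogs. In the Gstm cluster on chromosome 3, 7 genes over 149.1 kb, *Gstm5* stands at one end and *Gstm1* is 116.4 kb away. *Gstm4*, the neighbour of *Gstm1*, averaged 150 ± 22.1 normalized counts in Ahr+/+ against 161 ± 13.7 in Ahr-/- libraries (SD, 3 mice each), with a log2 fold change of 0.095 (95% interval -0.20 to 0.39). The genes between *Gstm5* and *Gstm1*, *Gstm7*, *Gstm6*, *Gstm3* and *Gstm2*, had at most 3 counts in any library. The Gstt cluster on chromosome 10 holds 4 genes over 63.3 kb. There *Gstt3* fell, *Gstt1* had a log2 fold change of -1.06 that did not pass, *Gstt4* was not tested, at no more than 2 counts in any library, and *Gstt2* rose.

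**Figure D4:**
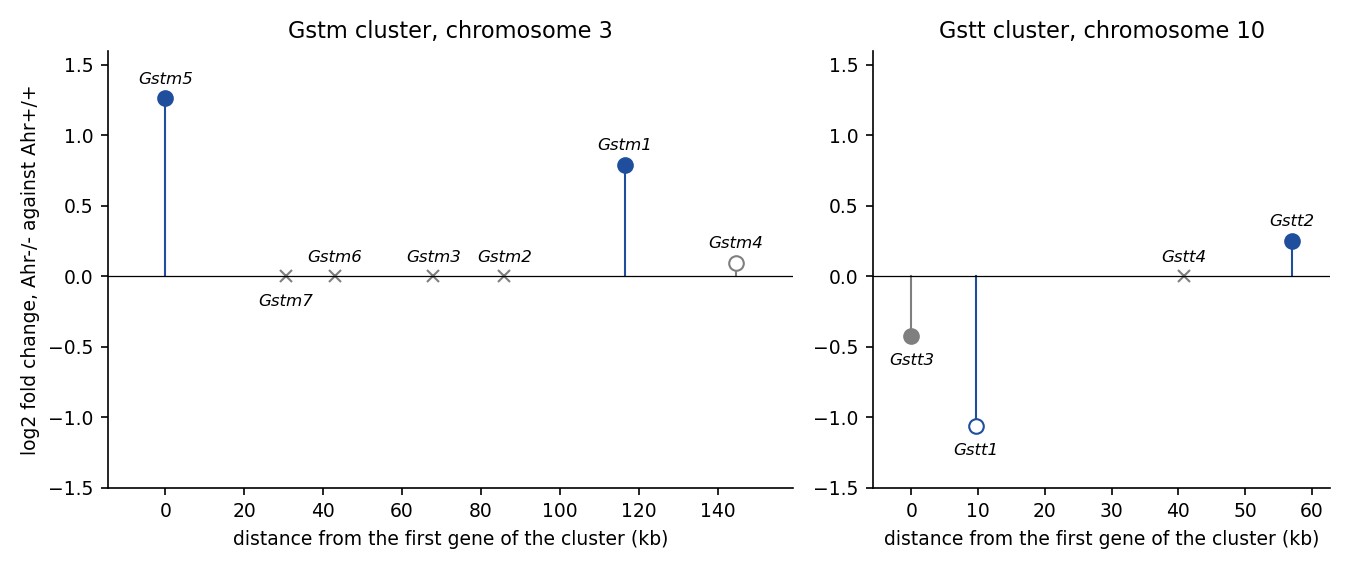
Log2 fold change of Ahr-/- against Ahr+/+ (y axis) by distance from the first gene of the Gstm and Gstt clusters in kb (x axis), with the 10 transferases described in blue and their neighbours in grey. Filled points passed an adjusted p of 0.05, open points did not, and crosses mark genes with at most 3 counts in any library. *Gstm5* and *Gstm1* are above 0 at both sides of 4 such genes, and *Gstt3* and *Gstt2* lie on opposite sides of 0.

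Genes with the profile most like each called transferase over the 6 libraries were found by the root mean square difference of centred log2 CPM among 9692 genes with at least 100 normalized counts. For *Gstm1* these were *Plaur*, the urokinase receptor, *Inppl1*, a lipid phosphatase, and *Bcl2l1*, which encodes the survival factor Bcl-xL, at differences of 0.0582, 0.0624 and 0.0735. For *Gstp1* they were *Paox*, a polyamine oxidase, *Abcb1b*, a drug efflux pump, and *Idh1*, which makes cytosolic NADPH, at 0.0223, 0.0271 and 0.0275. For *Gstt2* they were *Atpif1*, an inhibitor of mitochondrial ATPase, *Pgap2* and *Tmem160*, at 0.0304, 0.0306 and 0.0363. All of these had positive log2 fold changes, between 0.21 and 0.72, which the choice by likeness fixes.

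Outside the 10, the table holds 18 other transferases and relatives, of which 11 were tested, 2 fell and 0 rose, with a median log2 fold change of 0.0021. Over all genes tested, 8.13% were lower and 9.79% higher. *Hpgds*, the sigma-class transferase that makes prostaglandin D2, had 7605.5, 6865 and 6892 normalized counts in Ahr+/+ against 4050, 3228 and 3858 in Ahr-/- libraries. It was 1.93-fold lower in Ahr-/- cells, with a log2 fold change of -0.95 ± 0.0723 (SE, adjusted p = 1.52e-06, edgeR). *Gstt3*, a theta enzyme, went from 152 ± 9.12 to 113 ± 12.0 normalized counts (SD, 3 mice each), a log2 fold change of -0.42 (adjusted p = 0.0378 from edgeR). That call was lost without Ahr+/+ replicate 2, Ahr+/+ replicate 3, Ahr-/- replicate 1 or Ahr-/- replicate 2, where edgeR's adjusted p reached 0.152, and DESeq2's Wald test gave 0.0854. *Gstz1*, the zeta enzyme of tyrosine breakdown, differed by a log2 fold change of 0.0021, with a 95% interval from -0.12 to 0.12. *Hpgds* overlaps *Gm17147* on the opposite strand and *Gstt3* overlaps *Gm20441* on the same strand.

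Of the genes that make and recycle glutathione, 3 of 12 tested were lower and 1 higher, where 8.13% of all genes tested were lower and 9.79% higher. Their log2 fold changes lay below 0 for 6 genes and above 0 for 6, with a median of 0.011. *Gclc*, the catalytic subunit of the rate-limiting enzyme of glutathione synthesis, dropped to 7245 ± 32.1 normalized counts from 9551 ± 542 in Ahr+/+ cells (SD, 3 mice each), a log2 fold change of -0.40 ± 0.0432 (SE, adjusted p = 3.13e-05, edgeR). *Gclm*, its modifier subunit, fell from 1693 ± 30.6 to 1385 ± 40.0, a log2 fold change of -0.29 (adjusted p = 3.84e-04 from edgeR). *Slc3a2*, the heavy chain of several amino acid transporters including the cystine carrier, fell by 0.13 on the log2 scale (adjusted p = 0.0219 from edgeR). *Chac1*, which degrades glutathione, rose from 270 ± 22.9 to 337 ± 17.6, a log2 fold change of 0.32 (adjusted p = 0.0295 from edgeR). Without Ahr+/+ replicate 2 the calls of both *Slc3a2* and *Chac1* were lost, at adjusted p-values of 0.0523 and 0.0629 from edgeR. The calls of *Slc3a2* were also lost without Ahr+/+ replicate 3 or Ahr-/- replicate 2, with adjusted p-values up to 0.119, and those of *Chac1* without Ahr+/+ replicate 1, Ahr-/- replicate 1 or Ahr-/- replicate 3, with adjusted p-values up to 0.115. The call of *Slc3a2* was lost with library size alone (0.0606) and that of *Chac1* with DESeq2's Wald test (0.0624).

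Among glutathione peroxidases, glutaredoxins and related reductases, 1 of 12 tested was higher and 0 lower, where 9.79% of all genes tested were higher and 8.13% lower. In this list 2 were called without Ahr+/+ replicate 2 or without Ahr-/- replicate 3. The gene called with all libraries was *Glrx*, glutaredoxin, with 144, 157 and 142 normalized counts in Ahr+/+ and 237, 262 and 214 in Ahr-/- libraries. Its log2 fold change was 0.69 ± 0.112 (SE, adjusted p = 8.36e-04, edgeR). Of the genes for export of conjugates and their processing to mercapturates, 1 of 10 tested fell and 1 rose. The shares over all genes tested were again 8.13% lower and 9.79% higher. The efflux pump *Abcc4* dropped to 1632 ± 27.8 normalized counts from 3021 ± 40.4 in Ahr+/+ cells (SD, 3 mice each), a log2 fold change of -0.89 (adjusted p = 4.84e-09 from edgeR). *Acy1*, an aminoacylase that removes the acetyl group of mercapturates, rose by a log2 fold change of 0.22 (adjusted p = 0.0104 from edgeR).

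**Figure D5:**
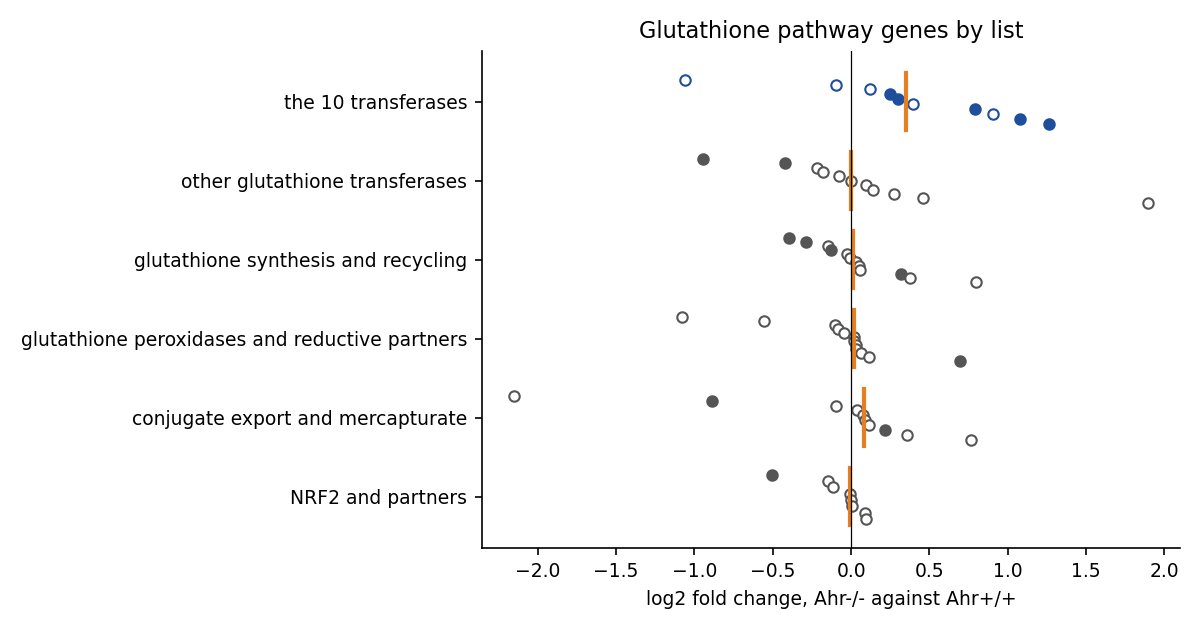
Fitted log2 fold change of Ahr-/- against Ahr+/+ (x axis) for each tested gene of 6 lists, with filled points past an adjusted p of 0.05 and an orange line at each list's median. The 10 transferases have their median at 0.35, and the other lists have medians between -0.0052 and 0.081.

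Classical AhR target genes ran the other way from the called transferases. Of 6 tested, 5 fell and 0 rose, where 8.13% of all genes tested fell and 9.79% rose. *Cyp1a1*, which oxidizes FICZ and other AhR ligands, had 4973, 5437 and 5327 normalized counts in Ahr+/+ against 6.87, 2.84 and 6.38 in Ahr-/- libraries, a log2 fold change of -10.04 (adjusted p = 1.58e-14 from edgeR). *Nqo1*, a quinone reductase that answers to both AhR and NRF2, fell from 1221 ± 47.6 to 53.8 ± 9.82 (SD, 3 mice each), a log2 fold change of -4.53 (adjusted p = 7.63e-12 from edgeR). *Tiparp*, a poly-ADP-ribose polymerase family member that represses AhR, fell by 4.31 on the log2 scale (adjusted p = 1.58e-14 from edgeR). *Cyp1b1* went from 233, 221 and 213 raw counts to 0 in every Ahr-/- library (adjusted p = 1.15e-08 from edgeR). *Ahrr*, the AhR repressor, went from 311, 319 and 325 raw counts to 2, 3 and 0 (adjusted p = 2.56e-09 from edgeR).

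Of the NRF2 regulators, 1 of 8 tested was lower and 0 higher, and 3 were called without Ahr-/- replicate 3. Over all genes tested, 8.13% were lower and 9.79% higher. *Nfe2l2*, which encodes NRF2, dropped to 2054 ± 42.9 normalized counts from 2914 ± 52.8 in Ahr+/+ cells (SD, 3 mice each), a log2 fold change of -0.50 (adjusted p = 1.21e-06 from edgeR). *Keap1*, which targets NRF2 for degradation, had a log2 fold change of 0.0031 with a 95% interval from -0.085 to 0.091.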

How the data were processed

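Spleen B cells of 3 Ahr+/+ and 3 Ahr-/- mice were sequenced from stranded poly(A) libraries on an Illumina instrument. The authors deposited raw counts per gene, which were used here. Their own normalized values, and a comparison table of fold changes and p-values, were not. The submitters' processing notes name mm10, TopHat2 (version 2), HTSeq and DESeq without their roles or settings. Of the symbols, 27 read as dates and 2 were duplicated.

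Genes whose counts summed to at least 10 in the 6 libraries (13682 of 23420) were tested with edgeR 4.0.16 in R 4.3.3 (TMM, quasi-likelihood test, genotype as the only term, prior count 0.125) and adjusted by the Benjamini-Hochberg method over all of them, at 0.05. Normalized counts are counts divided by TMM-scaled library size relative to its mean. The biological coefficient of variation was 0.0476. Alternatives were DESeq2 1.42.0, other scalings, filters, thresholds and prior counts, a replicate block and leaving out each library. The fit was tested on simulated data. Coordinates and lengths came from GENCODE on GRCm38, promoters from RefSeq. *Gstt2* has no promoter entry.

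The 10 members and all lists were chosen with earlier results of these data known. Named genes were all 10 members, up to 6 called genes per list with the largest absolute log2 fold change whose higher genotype averaged at least 10 normalized counts, *Cyp1a1*, *Cyp1b1*, *Ahrr* and *Nqo1*, and the 3 genes of most like profile for each called member with at least 100 normalized counts. *Gstz1*, *Gstp2*, *Keap1* and the cluster neighbours were added after their values were seen. A marker gene is not reported here.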

Additional observations from a re-analysis of the deposited data

How the results depend on the processing

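*Gstm1* and *Gstp1* passed in every alternative tried. The number of transferases called was 5 with DESeq2's size factors, with library size alone, with no filter and with a prior count of 2, and 4 when at least 10 counts in at least 3 libraries were required, since *Gstm5* was then not tested. It was 2, both higher, with DESeq2's Wald test and at an adjusted p under 0.01. Leaving out each library gave 3 to 6 called, 3 to 5 higher and 0 to 1 lower. It was 6 without Ahr-/- replicate 3 and 3 without any other library. The number called over all genes was 1664 to 2601 with a library left out and 2184 with DESeq2's Wald test, against 2453 in the main fit. Over all genes, an adjusted p under 0.01 left 1473 called, 690 lower and 783 higher. For the lists, it left 1 other transferase, 2 genes of synthesis and recycling and 1 of export. DESeq2's Wald test called 1 other transferase and 2 NRF2 regulators, library size alone 2 peroxidases and 2 NRF2 regulators, and no filter 2 NRF2 regulators. Leaving out libraries gave 1 to 2 other transferases, 2 to 3 of synthesis and recycling, 1 to 2 peroxidases and 1 to 3 NRF2 regulators. The cause was not tested. The sign turned for *Gstz1* with DESeq2's size factors (-0.0025) and Wald test (-0.0021), and its leave-one-out range was -0.042 to 0.053. Those of *Gstk1* and *Gstm4* were -0.32 to 0.10 and -0.0050 to 0.21.

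Replicate numbers showed no clear pairing. Same-numbered mice had correlated deviations of -0.030, 0.12 and -0.045, and unlike-numbered mice had values from -0.18 to 0.18. The deviations were centred within each genotype of 3 mice, so this check cannot show that the mice were unpaired. With the replicate number as a block, 4 transferases were called, without *Gstm5* (log2 fold change 1.19, adjusted p = 0.0709 from edgeR), and 2304 genes over all. With the longest transcript as length, 8 of 10 ranks in Ahr+/+ cells were unchanged and *Mgst1* and *Mgst2* exchanged places. Depth limits *Gstm5*, *Gstt1*, *Mgst1*, *Mgst2* and *Mgst3* most, at under 50 counts in every library.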
